A study of Mus musculus with 6 samples.

Results

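The adult heart library was set against the neonatal heart library of the same series, gene by gene, as the difference of their log2 expression values. These are 2 of 6 mouse samples, each measured on 1 Affymetrix Mouse Gene 2.0 ST array from 300 ng of total RNA extracted with TRIzol and an RNeasy column. Both are labelled as female DBA/2J mice, the first (Adult_CMs) as CMs, cardiomyocytes, of the adult heart and the second (Neonatal_CMs) as those of the neonatal heart. Neither the animals' ages and numbers nor the way the heart cells were isolated, or whether they were cultured, is given in the sources used here. The remaining arrays, which serve only as a gauge of the same genes elsewhere, hold undifferentiated induced pluripotent stem (iPS) cells kept on feeder cells and iPS cultures at day 7 with DMSO, NRG-1 or both. A gene's value is the mean over the probe sets that name it alone, and a gene entered when the higher of its heart values reached 5.20, the median of the whole table, which 13164 of 22180 measured genes did. Gad1, at 5.20 in the adult library and 4.33 in the neonatal library, entered last, and Fthl17b, at 4.92 and 5.20 there and just under that limit, was the first left out. With 1 array a side nothing here has a replicate check and nothing was tested, so every difference is a description of these libraries. The values are normalised between arrays, so a change in total RNA would not be seen, and levels are compared between libraries, never between genes.

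In the rodent heart the weeks around birth are a change of state. Cardiomyocytes leave the cell cycle, exchange fetal for adult contractile proteins, stop making atrial natriuretic peptide in the ventricle and turn from glucose to fatty acids as fuel. The cells around them change too, since fibroblasts go from building an extensible matrix to maintaining a stiff one, and the macrophages seeded in the embryo are joined by cells from blood monocytes.

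The labels were first held against defining genes, and for most of them neither library followed its label as cardiomyocytes. Of 10 cardiomyocyte markers, 0 in the adult library and 1 in the neonatal library lay at least 2-fold above the undifferentiated iPS array, the exception being Pln, phospholamban. Among all measured genes, 8.55% of adult values and 8.32% of neonatal values lay as far above iPS cells. The summed linear level of these markers was 370 in the adult library, 674 in the neonatal library and 407 in iPS cells. In the iPS cultures with DMSO, NRG-1 and both it was 926, 856 and 985, above both heart libraries. Myl2, the ventricular myosin light chain, read 5.33 in the adult library, 5.55 in the neonatal library and 4.94 in iPS cells. Titin, the giant sarcomere spring, read 4.76, 4.95 and 5.14 in that order, under the entry limit in both hearts. Cardiac genes outside this panel were less uniform. Tnnt2, cardiac troponin T, stood 3.67-fold above iPS cells in the adult library and 10.7-fold in the neonatal library. Nppa, atrial natriuretic peptide, and Actc1, cardiac actin, read below iPS cells in the adult library, while in the neonatal library they stood 32.4-fold and 2.73-fold above them. Of 26 cardiac transcription factors, 10 in the adult library and 13 in the neonatal library were at least 2-fold above iPS cells, and of 12 thin filament genes 3 and 4. All 6 fibroblast markers, in contrast, were at least 2-fold above iPS cells in both libraries, and their summed level was 22084 in the adult library, 16201 in the neonatal library and 943 in iPS cells. Col1a1, a chain of type I collagen, read 13.05 in the adult library, 12.99 in the neonatal library and 8.61 in iPS cells. Of 4 smooth muscle markers, 3 stood as far above iPS cells in either library. Macrophage markers summed to 889 in the adult library, 325 in the neonatal library and 391 in iPS cells. In the iPS cultures with DMSO, NRG-1 and both they summed to 2709, 2261 and 2861. At least 2-fold above undifferentiated iPS cells were 3 of 5 in the adult library and 1 of 5 in the neonatal library. For endothelial markers it was 1 of 4 in both, for epicardial ones 1 of 4 in the adult library and 2 of 4 in the neonatal library, for adipocyte ones 1 of 3 in both, and for skeletal muscle (4 measured) and Schwann or neuron markers (2 measured) 0 in both. The 3 erythroid markers named for the check have no probe set of their own here. The libraries are therefore called adult and neonatal after their titles, with no cell type claimed. In bulk RNA such as this, fewer cells of a type and less RNA per cell cannot be told apart.

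**Figure D1:**
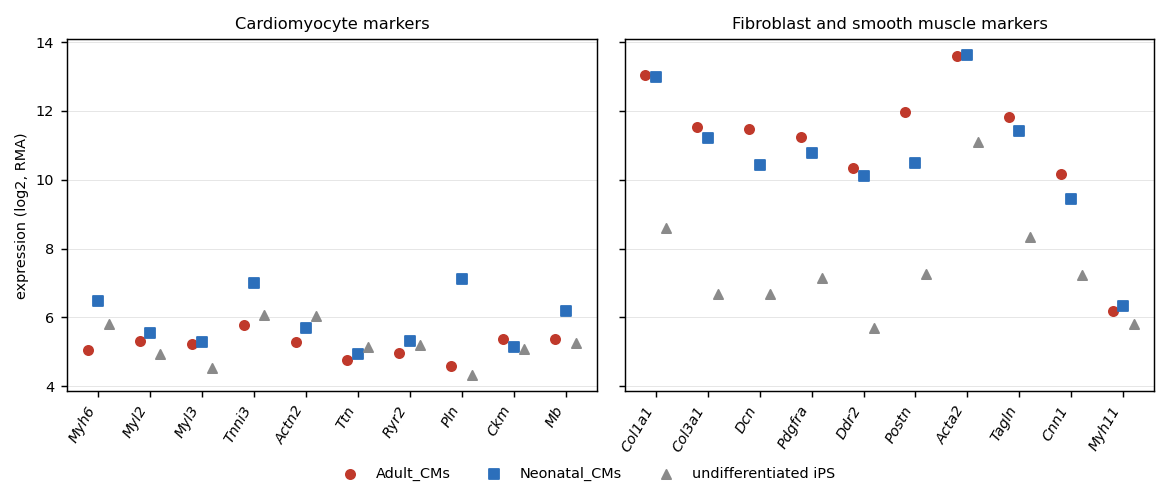
Log2 expression of 10 cardiomyocyte markers (left) and of 6 fibroblast and 4 smooth muscle markers (right) in the adult library (red circles), the neonatal library (blue squares) and undifferentiated iPS cells (grey triangles), 1 array each. The cardiomyocyte markers stay near the iPS level in the adult library, with Pln at 4.59, and only Pln in the neonatal library (7.13) clears it by 2-fold, while all fibroblast markers stand far above iPS cells in both.

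The marker plot shows these levels side by side. Genes of the sex chromosomes also went against the labels, which call both animals female. The Y-linked genes Eif2s3y, Kdm5d and Uty read 8.15, 7.02 and 7.55 in the adult library, against 6.20, 6.17 and 7.14 in the neonatal library and 3.27, 3.08 and 4.06 in iPS cells. Xist, the noncoding RNA made from a silenced X chromosome, read 3.39 in the adult library, 8.78 in the neonatal library and 5.97 in iPS cells. The neonatal library thus carried Xist and Y-linked RNA together, and the adult library Y-linked RNA without Xist. The part of this mismatch in the differences of X- and Y-linked genes was not tested, and the counts below are also given without them.

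Most genes differed little. Over the genes that entered, the median difference was -0.03 and the standard deviation 0.52 on the log2 scale, and 82.7% lay within 1.5-fold. At least 2-fold higher in the adult library were 332 genes (2.52% of those that entered), and at least 2-fold lower 385 genes (2.92%). Past 4-fold there were 49 higher genes (0.372%) and 41 lower ones (0.311%). Without the X and Y chromosomes these counts were 320 and 363, then 47 and 35. The split leans on the normalisation. Shifting the arrays to an equal median level of the housekeeping genes moved the median of all genes to -0.21 and gave 204 genes higher and 693 lower. The median of the housekeeping differences themselves went from 0.08 to -0.13 with that shift, so it did not centre them on 0. In each list below, a median between 0 and 0.21 turned negative under that shift, while its distance from the median of all genes was unchanged. The only measure of error within the arrays is how far probe sets of the same gene disagree. Over 700 genes with 2 probe sets, the standard deviation of that disagreement, divided by the square root of 2, was 0.395, or 1.32-fold.

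The genes furthest higher in the adult library included secreted, immune and matrix genes. Cd200, a surface ligand that restrains myeloid cells, read 9.85 in the adult library and 5.24 in the neonatal library, 24.4-fold higher. Ccl6, a chemokine of macrophages, read 9.45 and 5.30 in that order, 17.8-fold higher. In iPS cells they read 4.03 and 4.07, so the neonatal values lay between. Atp6v0d2, a subunit of the proton pump of osteoclasts and macrophages, was 17.0-fold higher (6.69 in the adult library, 2.60 in the neonatal library), and Rnase2a, a secreted ribonuclease, 16.4-fold (7.47 and 3.44). Arg1, the arginase of alternatively activated macrophages, was 13.8-fold higher. Cygb, cytoglobin, an oxygen-binding globin of stellate and fibroblast-like cells, read 10.35 in the adult library and 6.88 in the neonatal library, and Mpzl2, a cell adhesion protein, 10.04 and 6.64, both past 10-fold. The cytokine Tnfsf15 (7.75 and 4.58), the interferon-inducible DNA-binding protein Ifi202b (6.95 and 3.84), the copper-carrying ferroxidase Cp (9.32 and 6.36) and the complement inhibitor Cd59a (9.83 and 7.26) followed. Kcnma1, a calcium-gated potassium channel, is uncertain: its probe sets read 8.89 and 3.99 in the adult library and 4.29 and 3.60 in the neonatal library, so only the first differed.

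The genes furthest lower in the adult library were led by Xist and by Nppa. Nrk, a kinase known from the placenta, read 5.29 in the adult library and 9.32 in the neonatal library, 16.4-fold lower. Selp, P-selectin, which slows leukocytes on activated endothelium and platelets, read 5.40 and 9.26, 14.5-fold lower. Htr2a, a serotonin receptor, read 5.04 and 8.48, and Ppbp, the platelet chemokine precursor, 5.53 and 8.89. The adult values of these 4 genes lay nearer than the neonatal ones to iPS cells, which read 6.50 for Nrk, 4.28 for Selp, 4.50 for Htr2a and 4.67 for Ppbp. Glp1r, the receptor of the incretin GLP-1, read 6.19 in the adult library and 8.81 in the neonatal library, and Cda, cytidine deaminase, 5.69 and 8.36. Gpm6a, a membrane glycoprotein of neurons and mesothelium, read 4.78 and 7.41, and St3gal6, a sialyltransferase, 6.42 and 8.99.

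**Figure D2:**
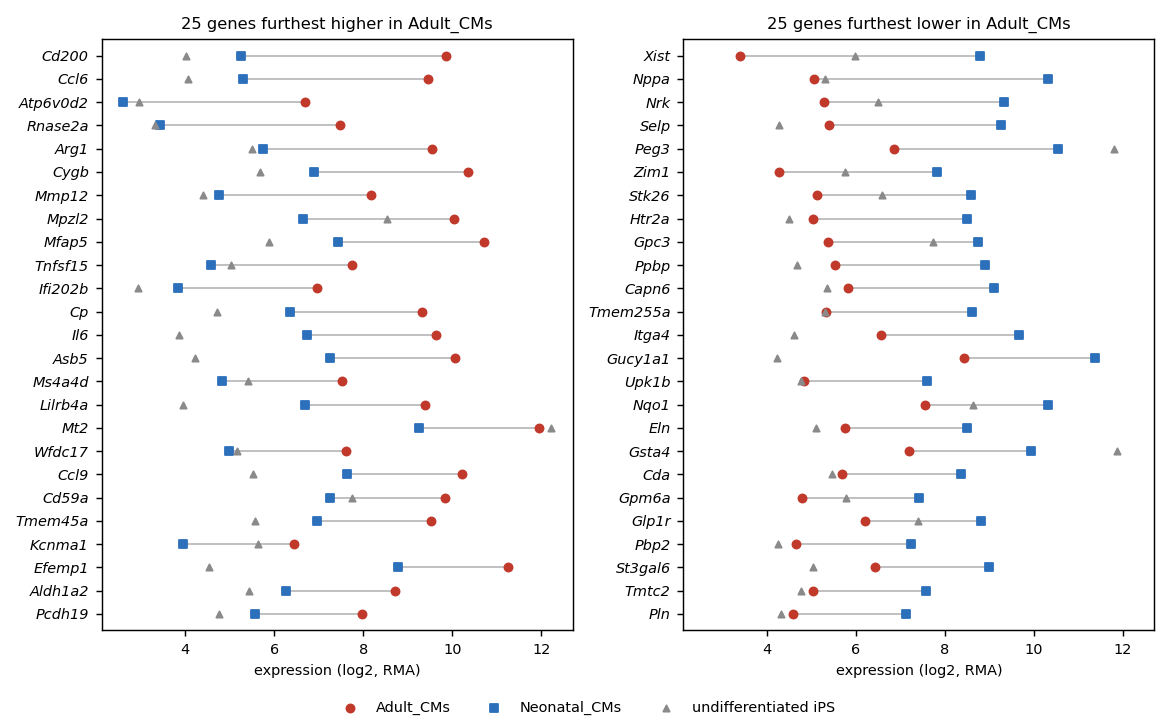
Log2 expression of the 25 genes furthest higher (left) and the 25 furthest lower (right) in the adult library, with a line joining the adult value (red circle) to the neonatal value (blue square) of each gene and iPS cells as grey triangles, 1 array each. The spans run from 5.32-fold for Pcdh19 to 24.4-fold for Cd200 on the left, and from 5.83-fold for Pln to 42.1-fold for Xist on the right.

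The plot of the leading genes orders both sides by size. Seen as gene groups, the difference had a few clear sides. Where a count below is given out of the measured members of a list, only members that entered could count as past 2-fold. Entry rested on the higher heart value, so a gene dim in either library entered only through the other. Among all genes that entered, 2.52% were at least 2-fold higher and 2.92% at least 2-fold lower. Macrophage, chemokine, immediate early, elastic fibre and lysosomal genes were mostly higher in the adult library, and DNA replication, mitosis, interferon-induced and mesothelial genes mostly lower, while respiratory chain, cholesterol, heat shock and lymphocyte genes hardly moved.

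**Figure D3:**
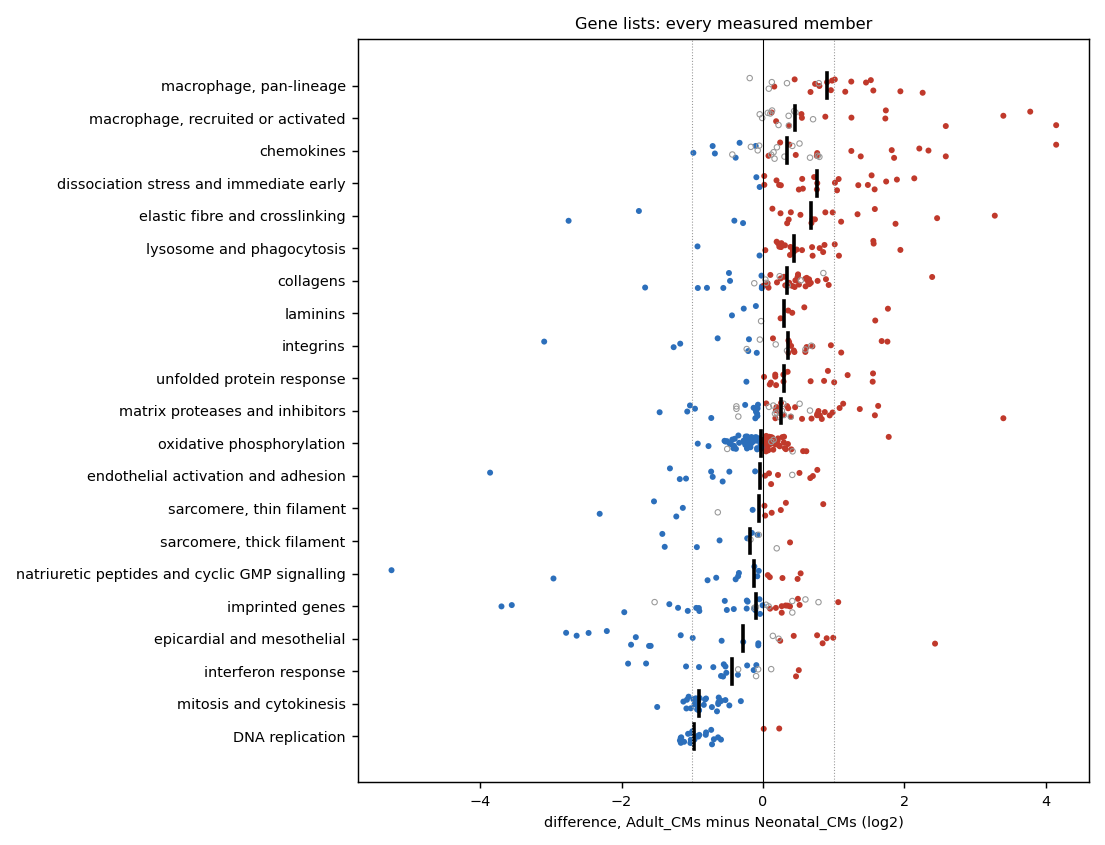
Difference, adult minus neonatal (log2), of every measured member of 21 gene lists. Filled points entered the comparison (red above 0, blue below 0), open points were dim in both libraries, the black bar is the median of all measured members, and dotted lines mark 2-fold; the medians run from 0.91 for pan-lineage macrophage genes to -0.97 for DNA replication.

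Contractile genes of the cardiomyocyte were never 2-fold higher in the adult library, and a handful were lower. In the thick filament 2 of 11 measured genes passed 2-fold, both lower (median -0.18, against 0.00 for all genes). Those were the heavy chain Myh6, at 5.05 in the adult library and 6.47 in the neonatal library, and the atrial light chain Myl7, at 4.12 and 5.51. Myh7, the heavy chain of the fetal mouse ventricle, read 4.82 and 5.75, under 2-fold. In the thin filament 4 of 12 were lower and 0 higher (median -0.06). Actc1, cardiac actin, read 5.72 in the adult library and 8.03 in the neonatal library, 4.96-fold lower, beside 6.58 in iPS cells. Tnnt2, cardiac troponin T, read 8.22 and 9.76, 2.91-fold lower, yet both libraries stood above iPS cells at 6.35. The inhibitory subunits Tnni3, of the adult heart, and Tnni1, of the fetal heart, were both lower, by 2.34-fold and 2.19-fold. The troponin I isoforms thus differed in the same direction. Both read lower in the adult library than in iPS cells, Tnni3 at 5.78 and 6.08 and Tnni1 at 5.65 and 5.86. An exchange of these isoforms therefore cannot be judged. The actins did not move together, since Acta1 read 7.60 in the adult library and 6.75 in the neonatal library while Actc1 was lower. Acta1 read 7.93 in iPS cells, above both libraries. Adult values of Myh6, Myh7 and Myl7 were also below iPS cells (5.82, 5.23 and 4.92), so an exchange of myosin isoforms cannot be judged. Among 14 Z-disc and titin genes, Des, the muscle intermediate filament desmin, read 6.61 in the adult library and 8.31 in the neonatal library, Myoz2, a Z-disc anchor of calcineurin, 4.35 and 5.39, and no other member passed 2-fold. Filament genes shared with smooth muscle and fibroblasts differed less, Tpm1 by -0.15, Pdlim5 by -0.20 and Flnc by 0.13. The muscle-wide list of 20 smooth muscle and myofibroblast genes had 0 higher and 2 lower (Des and Itga8) and a median of -0.10.

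Of 15 genes that define the adult ventricular myocyte, 3 passed 2-fold and all of these were lower in the adult library (median -0.22). Pln, which restrains the calcium pump of the sarcoplasmic reticulum, read 4.59 in the adult library, 7.13 in the neonatal library and 4.32 in iPS cells, 5.83-fold lower. The pump itself, Atp2a2, read 10.75 and 10.76, the same in both. It read 10.69 in iPS cells as well, so this level was not particular to the hearts. Mb, the oxygen store myoglobin, read 5.39 and 6.18, under 2-fold. Ckm and Fabp3, the muscle creatine kinase and fatty acid carrier, have probe sets that point in opposite directions and give no direction. Among 24 calcium handling and ion channel genes the other lower gene was Gja1, a gap junction connexin, at 9.02 in the adult library and 10.17 in the neonatal library, and 0 were higher (median -0.15).

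The natriuretic peptide system held the furthest lower gene outside the sex chromosomes. Nppa, atrial natriuretic peptide, read 5.06 in the adult library, 10.31 in the neonatal library and 5.29 in iPS cells, 38.2-fold lower, which puts the adult value at the iPS level. Nppb, the B-type peptide, read 5.40 and 6.19, under 2-fold. Gucy1a1, a subunit of the cyclase that makes cyclic GMP in answer to nitric oxide, read 8.42 in the adult library and 11.38 in the neonatal library, 7.80-fold lower. Its partner Gucy1b1 read 10.82 and 11.48, so the subunits of the same enzyme differed unequally, and both libraries were far above iPS cells for either gene. The peptide receptors differed little, Npr1 by 0.53, Npr2 by 0.07 and the clearance receptor Npr3 by -0.06. No other of the 15 genes of the pathway passed 2-fold, and the median was -0.12. In the same libraries the cardiomyocyte marker panel summed to 370 in the adult library and 674 in the neonatal library, and its part in these differences was not tested. That panel summed to 407 in iPS cells and to 926, 856 and 985 in the iPS cultures with DMSO, NRG-1 and both.

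Cardiac transcription factors differed little as a group: of 26 measured, 1 passed 2-fold (median -0.06). This gene, lower in the adult library, was Hey2, a Notch-responsive repressor of the compact ventricular wall, at 6.01 in the adult library and 7.57 in the neonatal library. Tbx20, a T-box factor of the heart and its fibroblasts, read 10.81 and 10.12 and stood 5.15 and 4.46 log2 units above iPS cells. Positional genes gave few differences too. Of 36 HOX genes only 10 entered and only Hoxa5 passed 2-fold, at 4.67 in the adult library and 6.66 in the neonatal library, and of 74 further positional factors, chiefly homeobox, T-box and forkhead genes with the TWIST factors, 1 was higher, Meox1 (6.63 and 5.38), and 2 lower, Meis2 (9.22 and 10.52) and Twist2 (5.56 and 6.57).

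Genes of cell division formed the most even group. Of 29 mitosis and cytokinesis genes, all of which entered, every one was lower in the adult library, 6 of them by at least 2-fold, with a median of -0.90. Birc5, survivin, which holds the chromosomal passenger complex together, read 6.61 in the adult library, 8.10 in the neonatal library and 8.21 in iPS cells. The kinases Aurkb (7.84 and 8.97), Aurka (7.98 and 9.07) and Plk1 (8.99 and 10.04) and the spindle motors Kif11 and Kif23 made up the other 2-fold differences. DNA replication genes had 10 of 25 past 2-fold, all lower, around a median of -0.97. Subunits of the replicative helicase moved by nearly the same amount, Mcm3 reading 8.23 and 9.40, Mcm6 8.43 and 9.59 and Mcm7 7.89 and 9.05, so all lay 2.23-fold to 2.26-fold lower in the adult library. Cdc6, which loads that helicase, read 6.55 and 7.67. For each of these genes the adult value was the lowest of adult, neonatal and iPS cells. Under the housekeeping shift every difference was 0.21 further below 0. The cell cycle inhibitors and senescence genes had 1 higher, Igfbp3, and 1 lower, Rbl1, of 18 (median -0.18), with Cdkn1c, a brake of fetal growth, reading 6.47 in the adult library and 7.38 in the neonatal library.

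A stretch upstream of Cdk1, the kinase that drives entry into mitosis, is shown because the mitotic genes moved together and a short element, TTTGAA (the CHR), is known from the promoters of such genes. Cdk1, named after its values were seen, read 8.82 in the adult library and 9.80 in the neonatal library, a difference of -0.98. The sequence is the 250 bases before the start of the gene in RefSeq's GRCm38.p6 annotation, read along the gene, with the element in capitals at 71 and 15 bases before the start.
Cdk1, chr10:69352913-69353162, minus strand: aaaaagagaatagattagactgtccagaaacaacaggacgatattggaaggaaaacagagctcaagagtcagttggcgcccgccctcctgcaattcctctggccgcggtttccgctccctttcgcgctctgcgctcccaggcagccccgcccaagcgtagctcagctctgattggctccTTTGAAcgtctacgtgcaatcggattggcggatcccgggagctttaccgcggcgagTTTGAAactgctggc
Searched on both strands, TTTGAA was found in the windows of 9 of 24 mitosis genes with a window, among them Top2a, Kif11, Cdc20 and Ccnb2, and in those of 18.26% of all 27025 genes with a window.

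Imprinted genes, expressed from the allele of a single parent and many of them regulators of growth before birth, split between a few large differences and a majority near 0. Of 39 measured, 6 (20% of the 30 that entered) lay 2-fold or more below the neonatal library and 1 above it (median -0.10). Peg3, a zinc finger protein, read 6.85 in the adult library, 10.55 in the neonatal library and 11.81 in iPS cells, a difference of -3.70. Zim1, its neighbour on chromosome 7, read 4.26 and 7.82, 11.7-fold lower, and Usp29 from the same cluster 3.47 and 5.00, which left it under the entry limit. Mest, a hydrolase of the embryonic mesoderm, read 6.18 in the adult library and 8.14 in the neonatal library, and Plagl1, a growth-restraining zinc finger, 4.08 and 5.28, although only 1 of its probe sets differed past 2-fold. Igf2, the fetal growth factor, read 6.59 and 7.49 and Grb10, an adaptor that damps insulin signalling, 10.18 and 11.12, neither of them 2-fold apart. Dlk1, a Notch-like protein of immature cells, read 5.84 and 5.88, the same in both. The higher gene was Dcn, decorin, a collagen-binding proteoglycan that is imprinted in the mouse placenta.

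Other genes of fetal growth differed in the same libraries. Gpc3, an X-linked cell surface glypican, read 5.38 in the adult library and 8.74 in the neonatal library, 10.3-fold lower. Igf2bp3, an RNA-binding protein of fetal tissues, read 7.44 and 9.46, and Hmga2, a chromatin protein of growing mesenchyme, 8.08 and 9.64, lower by 4.07-fold and 2.93-fold. Insulin-like growth factor genes of later life went the other way, with Igf1 at 7.74 in the adult library and 6.53 in the neonatal library and its binding protein Igfbp3 at 9.85 and 8.34. Of the 21 genes of the list these 2 were higher and 4 were lower (median -0.11).

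Mesothelial and epicardial genes, which mark the sheet of cells over the heart's surface, were lower in the adult library. Past 2-fold, 9 of 23 measured genes were on the lower side and 1 on the higher (median -0.28). Upk1b and Upk3b, uroplakins of mesothelium and bladder, read 4.82 and 6.19 in the adult library, against 7.60 and 8.05 in the neonatal library. Wt1, the zinc finger factor of the epicardium, read 6.87 and 8.45, 3.01-fold lower. The simple keratins, which form the filaments of such sheets, were lower too, Krt8 at 5.84 in the adult library and 8.30 in the neonatal library, Krt18 at 7.32 and 9.53 and Krt19 at 6.45 and 7.61. Those were also the 3 lower genes of 16 epithelial genes, of which 0 were higher. Aldh1a2, the retinoic acid synthase of the developing epicardium, ran against the rest at 8.70 in the adult library and 6.27 in the neonatal library, 5.41-fold higher. The wider retinoic acid list had 1 higher (Aldh1a2), 1 lower (the receptor Rarb, 7.58 and 8.63) and a median of 0.16 over 18 genes.

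Vessel genes moved in both directions, receptor by receptor. Of 24 endothelial genes 5 passed 2-fold, 3 of them higher in the adult library (median 0.19). Cdh5, the endothelial cadherin, read 8.99 in the adult library and 7.62 in the neonatal library, Tek, the angiopoietin receptor, 7.13 and 5.81, and Ednrb, an endothelin receptor, 7.21 and 5.73. The VEGF receptors Flt1 (5.49 and 7.45) and Flt4 (6.10 and 7.46) were lower, while Kdr and Pecam1 differed by 0.19 and 0.24. In iPS cells Flt1 read 5.58, near the adult value, and Tek 6.05, near the neonatal value. Of 18 genes of activated endothelium and adhesion 0 were higher and 4 lower, Selp first, then Pgf, placental growth factor (6.03 and 7.35), Sele, E-selectin (5.21 and 6.39), and Thbd, thrombomodulin (7.42 and 8.51).

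Fibroblast genes were high in both libraries, and the adult library carried somewhat more of several. Of 27 measured, 4 were at least 2-fold higher, 1 was lower (Wt1), and the median was 0.32. Postn, periostin, a matrix protein of activated fibroblasts, read 11.97 in the adult library and 10.48 in the neonatal library, 2.80-fold higher. Mfap5, a protein of microfibrils, read 10.72 and 7.44, 9.73-fold higher, Dcn 11.48 and 10.42, and Meox1, a homeobox factor of activated fibroblasts, 6.63 and 5.38. The 6-gene fibroblast panel of the label check had 2 of its members, Postn and Dcn, past 2-fold and none lower.

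Elastic fibre genes showed an opposition inside a single structure. Elastic fibres are elastin cores on a scaffold of fibrillin microfibrils, joined by lysyl oxidases. Eln, elastin, read 5.75 in the adult library, 8.50 in the neonatal library and 5.10 in iPS cells, 6.73-fold lower. Fbn2, the fibrillin of development, read 6.72 and 8.47, 3.38-fold lower. The proteins that decorate and assemble the fibre were higher instead. Efemp1, a fibulin, read 11.26 in the adult library and 8.79 in the neonatal library, Ltbp2, a fibrillin-binding protein, 10.16 and 8.28, and Loxl3, a lysyl oxidase, 9.80 and 8.22. With Mfap5, Emilin2 and Mfap4 (2.53-fold and 2.15-fold) these made 6 of 21 genes at least 2-fold higher and 2 lower, the median being 0.69. Lox, Loxl1 and Fbln5 pointed the same way by 0.69, 0.53 and 0.88.

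**Figure D4:**
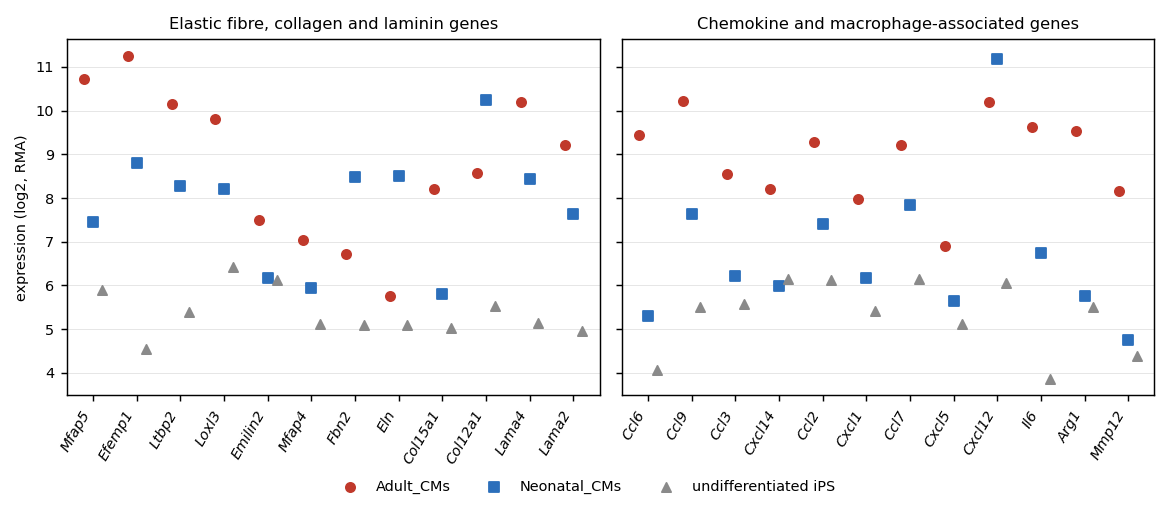
Log2 expression of 12 matrix genes (left) and 12 chemokine and macrophage-associated genes (right) in the adult library (red circles), the neonatal library (blue squares) and iPS cells (grey triangles), 1 array each. On the left Eln, Fbn2 and Col12a1 are lower in the adult library and the others higher; on the right only Cxcl12 is lower there (10.19 against 11.18).

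The plot of matrix genes shows that opposition. Collagen genes as a group lay close together, with 1 higher and 1 lower of 44 and a median of 0.33. Col15a1, a collagen of basement membranes, read 8.20 in the adult library, 5.80 in the neonatal library and 5.04 in iPS cells, 5.26-fold higher. Col12a1, which binds fibril surfaces in growing and loaded tissue, read 8.58 and 10.24, 3.17-fold lower. The laminin chains Lama4 (10.21 and 8.44) and Lama2 (9.21 and 7.62), found in vessel and muscle basement membranes, were higher in the adult library by 3.41-fold and 3.01-fold, and none of 10 laminin genes was lower. Among 14 small leucine-rich proteoglycans only Dcn passed 2-fold, and Ogn read 12.26 and 11.46 (median 0.27). Tnxb, tenascin X, read 5.87 in the adult library and 7.49 in the neonatal library, whereas the adhesive proteins Sparcl1 (8.65 and 7.18) and Ccn5 (8.37 and 7.10) were higher. The matricellular list held 3 higher and 1 lower of 32 with a median of -0.04.

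Receptors and enzymes of the matrix also differed. Itga4, the integrin chain that binds VCAM1 and fibronectin, read 6.56 in the adult library, 9.66 in the neonatal library and 4.60 in iPS cells, 8.55-fold lower. Itga8 and Itga3 were lower as well (5.01 and 6.27, then 7.43 and 8.60), and Itga11, the fibroblast collagen receptor, was higher at 6.58 and 4.82. That gave 3 higher and 3 lower of 27 integrin genes, with a median of 0.36. Of 55 matrix proteases and inhibitors, 9 passed 2-fold, 6 higher and 3 lower (14.6% and 7.32% of the 41 that entered, median 0.26). Mmp12, the elastase of macrophages, read 8.17 in the adult library and 4.76 in the neonatal library, 10.6-fold higher, Mmp3, stromelysin, 8.06 and 6.43, and Mmp9, a gelatinase, 6.53 and 5.16. Among the lower genes were the urokinase receptor Plaur, at 8.18 and 9.64, and the protease urokinase itself, Plau, at 8.28 and 9.31.

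In each of the macrophage lists several genes were higher in the adult library and none was 2-fold lower. Of 21 pan-lineage genes, 8 passed 2-fold (50% of the 16 that entered), all upwards, and the median was 0.91. Lyz2, lysozyme, read 8.24 in the adult library, 5.98 in the neonatal library and 4.29 in iPS cells, 4.79-fold higher. Ctss, a protease of antigen presenting cells, read 7.75 and 5.80, and Fcer1g, an Fc receptor chain, 7.74 and 6.21. Cd68, a lysosomal glycoprotein, read 8.82 in the adult library and 7.25 in the neonatal library. It read 8.14 in iPS cells and 11.2, 10.9 and 11.3 in the iPS cultures with DMSO, NRG-1 and both, so it was not particular to the hearts. Not all lineage genes followed, as Csf1r, the receptor for the macrophage growth factor, read 6.25 and 6.09, and Adgre1 and Ptprc stayed under the entry limit in both. Genes of resident macrophages were higher for 6 of 23 (40% of the 15 that entered) and lower for 0 (median 0.44). The mannose receptor Mrc1 read 6.13 in the adult library and 4.47 in the neonatal library, and C1qb, a chain of complement C1q, 7.03 and 5.45. Cd163, Timd4 and Vsig4 of the same list were dim in both libraries. Genes of recruited or activated macrophages were higher for 7 of 24 (53.8% of the 13 that entered) and lower for 0 (median 0.45). Among the higher ones were the scavenger receptors Msr1 (6.83 and 5.09) and Marco (7.62 and 5.89), while Ccr2, Ly6c2, Il1b and Chil3 were dim in both. Several higher members of the macrophage lists entered only through their adult value, among them Mpeg1 (neonatal 4.81), Mmp12 (neonatal 4.76), Mrc1 and Msr1. That entry rule raises the shares given of the genes that entered. The macrophage marker panel summed to 889 in the adult library and 325 in the neonatal library, and its part in these differences was not tested. In the iPS cultures with DMSO, NRG-1 and both, where Cd68 was high, it summed to 2709, 2261 and 2861. A higher sum was thus not particular to the adult library.

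Chemokine genes were higher for 8 of 34 (40% of the 20 that entered) and lower for 0, with a median of 0.34. Ccl9 read 10.21 in the adult library and 7.63 in the neonatal library, 6.01-fold higher, and with Ccl6 and Wfdc17 (7.61 and 4.99) lies on chromosome 11. Ccl3 read 8.56 and 6.21. Cxcl14, a chemokine of fibroblasts and epithelia, was higher by 2.21 on the log2 scale. The monocyte attractants Ccl2 (9.27 and 7.42) and Ccl7 (9.22 and 7.84) and the neutrophil attractants Cxcl1 (7.98 and 6.16) and Cxcl5 (6.89 and 5.64) were higher as well. Cxcl12, the stromal chemokine that holds progenitors in place, read 10.19 in the adult library and 11.18 in the neonatal library, just short of 2-fold lower. No chemokine receptor of 22 passed 2-fold, and 9 of them entered. Il6, interleukin 6, read 9.63 in the adult library, 6.74 in the neonatal library and 3.86 in iPS cells, 7.42-fold higher. Lifr, a receptor of the same cytokine family, read 6.95 and 8.43, 2.80-fold lower, and 2 of 30 interleukin and receptor genes were higher in all (median 0.20), the other being Il15 (6.21 and 5.03).

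Antigen presenting, lymphoid and granulocyte genes gave little. Cd80, a costimulatory ligand, read 9.87 in the adult library and 7.55 in the neonatal library, 4.99-fold higher, but 8.86 in iPS cells, and no other of 18 dendritic cell genes passed 2-fold. Of 21 lymphocyte genes 6 entered and 0 passed 2-fold, and of 19 neutrophil and mast cell genes 4 entered and 0 passed it. Lysosomal genes were higher for 5 of 26 and lower for 0, with a median of 0.43, cathepsin D (Ctsd) reading 11.34 in the adult library and 10.32 in the neonatal library and the protease Lgmn 10.22 and 9.14. Of the 22 complement and coagulation genes 2 were higher, C1qb and C1qc, and 2 lower, Masp1 (6.79 and 8.18) and Thbd (median 0.17).

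Interferon-induced genes went the other way from the macrophage genes. Of 20 measured, 3 passed 2-fold and all 3 were lower in the adult library (median -0.44). Ifi202b, named above as interferon-inducible but not on this list, was 8.66-fold higher in the adult library. Usp18, which switches off the interferon receptor, read 6.01 in the adult library and 7.92 in the neonatal library, 3.75-fold lower. Bst2, tetherin, which holds budding viruses at the membrane, read 6.77 and 8.42, 3.15-fold lower, and Ifih1, a sensor of double-stranded RNA, 6.73 and 7.81. Bst2 in iPS cells stood at 7.57, between the hearts, whereas Usp18 and Ifih1 were at 4.89 and 4.77 there.

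Immediate early genes, transcription factors and repressors that cells switch on within minutes of a stimulus or of tissue dissociation, were higher in the adult library. Of 23 measured, all of which entered, 10 passed 2-fold, all of them higher (median 0.76). Egr2, a zinc finger factor, read 9.35 in the adult library, 7.21 in the neonatal library and 5.98 in iPS cells, 4.41-fold higher. The orphan nuclear receptors Nr4a1 (10.08 and 8.18) and Nr4a3 (7.02 and 5.28) came next. Fos, a partner in the AP-1 dimer, read 9.02 and 7.43, and Btg2, an antiproliferative gene, 9.35 and 7.87. How the cells were handled before lysis is not given in the sources used here, and its part in these values was not tested.

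The unfolded protein and amino acid stress genes leaned the same way, with 16 of 17 above 0, 4 at least 2-fold higher, 0 lower and a median of 0.29. Chac1, which breaks down glutathione, read 7.50 in the adult library and 5.94 in the neonatal library, and Trib3, a pseudokinase, 7.58 and 6.03, 2.95-fold and 2.94-fold higher. Herpud1, of the degradation machinery at the endoplasmic reticulum, read 10.22 and 9.02 and the factor Ddit3 (CHOP) 8.08 and 7.07. The chaperone Hspa5 (BiP) differed by 0.29 and its relative Hyou1 by 0.10, less than the genes above. Of 70 heat shock and chaperone genes only Hspa1b passed 2-fold, at 7.80 and 6.73 (median 0.02).

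Metallothioneins and redox enzymes, often grouped as a single stress response, went apart. Mt2, a small protein that binds zinc and copper, read 11.94 in the adult library, 9.26 in the neonatal library and 12.22 in iPS cells, 6.40-fold higher than in the neonatal library. Mt1, beside it on chromosome 8, read 10.16 and 8.42, with 10.32 in iPS cells. For both it was the neonatal value that stood apart from the other two. Nqo1, a quinone reductase controlled by the factor NRF2, read 7.54 in the adult library and 10.32 in the neonatal library, 6.85-fold lower, Gsta4, a glutathione transferase, 7.19 and 9.92, 6.64-fold lower, and Txnrd1, thioredoxin reductase, 10.71 and 11.91. The cystine carrier Slc7a11 pointed upwards on both of its probe sets, by 2.09 and 0.63. The list held 3 higher and 5 lower of 25, with a median of -0.14.

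**Figure D5:**
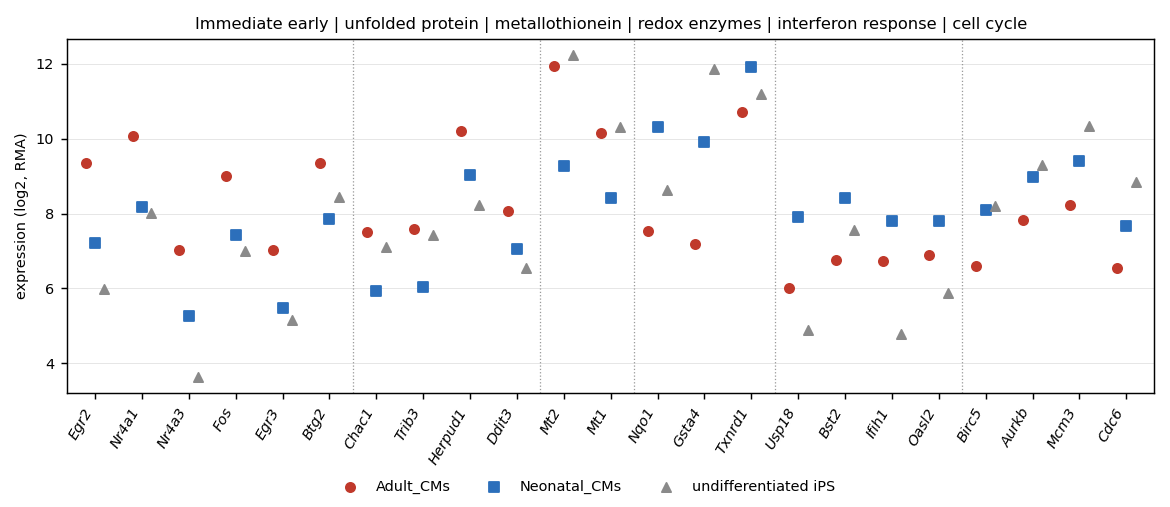
Log2 expression of stress, interferon and cell cycle genes in the adult library (red circles), the neonatal library (blue squares) and iPS cells (grey triangles), 1 array each, with dotted lines between gene groups. Adult values are above neonatal ones from Egr2 to Mt1, and below them from Nqo1 to Cdc6.

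The plot of stress and cycle genes sets these groups side by side. Upstream sequences of 5 of their genes and of Actc1 are shown because short elements known to bind the factors of each response can be read in them. Each is the 250 bases before the start in RefSeq's GRCm38.p6 annotation, written along the gene, with matches on either strand in capitals. Egr2 has 5 listed starts, and the window with the most matches is given.
Mt2, chr8:94172368-94172617, plus strand: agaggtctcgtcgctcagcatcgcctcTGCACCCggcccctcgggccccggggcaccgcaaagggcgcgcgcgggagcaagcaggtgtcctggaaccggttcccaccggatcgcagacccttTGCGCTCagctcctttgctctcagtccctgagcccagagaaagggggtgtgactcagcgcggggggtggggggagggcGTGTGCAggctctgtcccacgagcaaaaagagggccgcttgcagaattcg
Mt1, chr8:94178839-94179088, plus strand: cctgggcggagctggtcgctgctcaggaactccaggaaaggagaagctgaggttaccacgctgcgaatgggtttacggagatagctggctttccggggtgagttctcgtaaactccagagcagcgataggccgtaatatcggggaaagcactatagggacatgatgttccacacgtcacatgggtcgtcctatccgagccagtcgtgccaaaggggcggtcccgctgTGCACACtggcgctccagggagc
Chac1, chr2:119350992-119351241, plus strand: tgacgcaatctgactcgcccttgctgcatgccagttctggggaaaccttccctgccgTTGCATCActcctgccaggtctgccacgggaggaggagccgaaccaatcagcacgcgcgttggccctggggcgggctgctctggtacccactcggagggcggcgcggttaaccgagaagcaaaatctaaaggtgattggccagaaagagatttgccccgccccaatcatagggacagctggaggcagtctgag
Egr2, chr10:67537316-67537565, plus strand: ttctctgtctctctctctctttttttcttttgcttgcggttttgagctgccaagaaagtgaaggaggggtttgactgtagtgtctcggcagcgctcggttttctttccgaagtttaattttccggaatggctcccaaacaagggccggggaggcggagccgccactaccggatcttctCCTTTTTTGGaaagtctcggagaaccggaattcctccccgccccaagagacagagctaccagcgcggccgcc
Actc1, chr2:114052876-114053125, minus strand: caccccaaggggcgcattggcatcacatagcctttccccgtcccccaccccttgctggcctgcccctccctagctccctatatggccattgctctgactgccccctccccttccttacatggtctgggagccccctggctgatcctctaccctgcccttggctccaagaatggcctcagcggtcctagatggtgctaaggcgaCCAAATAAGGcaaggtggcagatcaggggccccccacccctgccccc
Bst2, chr8:71537473-71537722, minus strand: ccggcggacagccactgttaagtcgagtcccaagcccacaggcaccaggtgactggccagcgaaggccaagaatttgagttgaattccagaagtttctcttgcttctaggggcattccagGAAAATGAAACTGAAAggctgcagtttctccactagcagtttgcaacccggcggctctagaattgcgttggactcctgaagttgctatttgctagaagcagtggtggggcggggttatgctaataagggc
In Mt2 and Mt1 the capitals mark the metal response element, searched as TGCACNC or TGCGCNC, at 223, 128 and 50 bases before the start of Mt2 and 23 bases before that of Mt1. It was in 7 of 19 windows of the redox and metallothionein list, including that of Gclm, and in those of 23.76% of all genes, so a match in a gene is common. In Chac1 they mark the amino acid response element TGATGNAA, on the opposite strand, 193 bases before the start, which 4 of 15 stress genes and 3.907% of all genes held. The CArG box, the site of serum response factor, lies 72 bases before the start of Egr2 and 47 before that of Actc1, and was in 2 of 19 windows of the immediate early list and in those of 1.624% of all genes. The pair differed in opposite directions between the libraries. In Bst2 the interferon element GAAANNGAAA occurs as overlapping copies at 130 and 124 bases before the start, and 8 of 16 interferon genes held it, against 3.463% of all genes. These matches describe letters in a window and do not show binding.

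Signalling genes differed ligand by ligand. Fgf7, a fibroblast growth factor that acts on epithelia, read 7.73 in the adult library and 5.71 in the neonatal library, 4.05-fold higher, and Fgf2 6.36 and 7.55, 2.29-fold lower. Egfr was the only gene of 14 in the neuregulin and ERBB list past 2-fold, at 9.10 and 10.38, with Nrg1 at 8.55 and 8.04 and Erbb4 dim in both libraries (4.03 and 4.41). Vegfa, the vessel growth factor, read 10.49 in the adult library and 9.16 in the neonatal library, beside the lower receptors Flt1 and Flt4 above. Pdgfrl, a secreted relative of the PDGF receptor, read 8.41 and 6.10, 4.94-fold higher, and Met, the receptor for hepatocyte growth factor, 6.47 and 7.91, lower.

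Of 38 Wnt receptors and antagonists 3 were at least 2-fold higher in the adult library, the secreted antagonists Dkk2 (8.41 and 6.74) and Frzb (11.15 and 9.84) and the receptor Lgr6, while none of 19 Wnt ligands passed 2-fold (medians 0.12 and 0.07). In the BMP and TGF-beta pathway Id2, a BMP target that blocks basic helix-loop-helix factors, read 9.33 in the adult library and 10.76 in the neonatal library, Bambi, a decoy receptor, 7.72 and 8.77, and Acvrl1, a receptor of vessels, 7.81 and 6.55, with a median of 0.16 over 42 genes. Axon guidance genes, many of which steer vessels and nerves in the heart, had 6 of 67 lower and 2 higher. Sema3d, an epicardial semaphorin, read 7.11 in the adult library and 8.91 in the neonatal library, Sema3c 4.89 and 6.57 and Epha3 4.76 and 6.29. Sox9, a factor of cartilage and valve mesenchyme, was higher at 9.25 and 7.40, although Acan, aggrecan, its target in cartilage, was lower at 5.36 and 6.56.

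Energy metabolism genes differed little as groups. Of 20 fatty acid oxidation genes 2 passed 2-fold, in opposite directions (median 0.10). Cd36, the fatty acid uptake receptor, which macrophages and endothelium also carry, read 8.22 in the adult library, 6.28 in the neonatal library and 3.65 in iPS cells, 3.82-fold higher. Pdk4, which turns the cell from glucose to fat, read 7.24 and 8.27, 2.04-fold lower. Of 89 respiratory chain genes only Ndufa4l2, a hypoxia-induced gene of the list, passed 2-fold (7.06 and 5.28), and the median was -0.03. Glycolysis had a median of 0.21 over 17 genes and cholesterol synthesis one of -0.03 over 16, with 0 genes past 2-fold in either. Epas1, the hypoxia factor of vessels, was 2.05-fold higher and with Vegfa made 2 of 16 hypoxia genes higher and 0 lower (median 0.32). The 11 housekeeping genes had a median of 0.08 with 0 past 2-fold, and the widest of them, the transferrin receptor Tfrc, differed by -0.94.

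Several smaller lists complete the account. Of 28 proteoglycan and hyaluronan genes 1 was higher, the hyaluronan-degrading Cemip (9.03 in the adult library, 7.73 in the neonatal library), and 2 lower, Gpc3 and Acan (median -0.06). Class I antigen presentation had 1 higher of 12, H2-T23 (5.32 and 4.10), and 0 lower (median 0.06). Of 17 adipocyte genes Cd36 was higher and Pparg, the adipocyte nuclear receptor, lower at 7.38 and 8.51 (median 0.11). Notch and hedgehog genes had 2 lower of 25, Hey2 and the hedgehog co-receptor Gas1 (7.81 and 9.05), and 0 higher. Pericyte, lymphatic and skeletal muscle lists added only genes already named, and of 19 neuron and Schwann genes none passed 2-fold (median 0.13). In the prostaglandin and nitric oxide list Arg1 alone passed it, and Ptgs2, the inducible cyclooxygenase, read 11.74 and 10.91.

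For microRNA genes these arrays read the precursors rather than the mature RNAs. Mature sequences of a let-7 gene, of 3 genes of an imprinted cluster and of an X-linked gene, all past 2-fold, are shown with the seed, bases 2 to 8 that pair with targets, in capitals (RefSeq, GRCm38.p6), so that shared seeds can be seen.
mmu-let-7c-5p: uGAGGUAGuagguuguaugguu
mmu-miR-494-3p: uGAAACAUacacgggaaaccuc
mmu-miR-323-3p: cACAUUACacggucgaccucu
mmu-miR-679-5p: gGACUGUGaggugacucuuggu
mmu-miR-505-3p: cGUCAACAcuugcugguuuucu
Mirlet7c-2, of the let-7 family that accumulates as tissues mature, read 5.27 in the adult library and 3.02 in the neonatal library, 4.75-fold higher. Mirlet7c-1, which gives the same mature let-7c from chromosome 16, read 5.27 and 5.38, so the loci of that RNA differed unequally. The seed GAGGUAG is shared by 13 mature entries, and of 11 let-7 genes measured 4 entered, 1 of them higher and 0 lower (median 0.31). The remaining sequences have seeds of their own. Mir494, Mir323 and Mir679 lie in the imprinted Dlk1-Dio3 region of chromosome 12 and read 4.45, 4.89 and 5.73 in the adult library, against 5.61, 5.98 and 6.80 in the neonatal library. The long RNA Rian of that region read 8.95 and 10.01, while Meg3 read 5.71 and 5.36 and Dlk1 5.84 and 5.88. Of the 41 measured RNAs of the region, 20 entered and 4 were 2-fold lower, none higher (median -0.14). Mir505, from the X chromosome, read 4.64 in the adult library and 6.23 in the neonatal library. Mir145a and Mir143, a pair known from smooth muscle, read 7.14 and 7.05 in the adult library, against 5.00 and 6.16 in the neonatal library, 4.41-fold and 1.86-fold higher. Of 33 muscle and heart microRNA genes 9 entered and only Mir145a passed 2-fold. The less studied Mir1904 (5.90 and 4.11), Mir3108 (5.48 and 4.12), Mir3090 (5.52 and 4.29) and Mir1195 (9.72 and 8.61) were higher as well.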

How the data were processed

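Each of 6 RNA samples was hybridised to 1 array. The authors deposited log2 expression values of 41345 probe sets, and per the submitters' processing notes these come from RMA, whose version and genome build the sources used here do not give. RMA equalises the arrays' distributions, and sorted columns lay within 0.285 of each other, so a shift of most genes at once is not visible, and without detection calls background could not be judged. The platform annotation lists 25335 probe sets, 23521 with 1 gene symbol and 1814 with several, and 16010 are unnamed here. Of those with 1 symbol, 23328 matched the RefSeq table of GRCm38.p6 by Entrez identifier, and 0 symbols changed. The mean over single-gene probe sets gave 22180 genes, and 1082 had several probe sets.

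The difference is adult minus neonatal, and each array gives its group by its title. Thresholds were 2-fold and 4-fold. Of 1954 entries in 72 gene lists, 1816 were measured. Named genes are the 25 furthest each way (leaving out predicted, clone, small RNA, receptor-segment and histone names), the 6 or fewer members furthest apart in each list, all members of the sarcomere, natriuretic, imprinted, macrophage, chemokine, sex and housekeeping lists, and up to 10 microRNA genes. The genes and lists were chosen with earlier results of these data known, and Emilin2, Mfap4, Cdk1, Plau and a few further list members were named after their values were seen. Motifs were searched on both strands in the 250 bases before each RefSeq start. Alternatives were other filters, probe set summaries and normalisations (limma 3.58.1 in R 4.3.3 for cyclic loess), and a value was called moved at 1.5-fold. Counting was tested on simulated data. Python 3.11.15, numpy 2.4.6, pandas 2.3.3 and matplotlib 3.10.9 were used.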

Additional observations from a re-analysis of the deposited data

How the results depend on the processing

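No paired analysis was possible because each group has 1 array, and for the same reason no replicate could be left out. Shifting the arrays to an equal median level of the housekeeping genes moved the median of all genes by -0.21. It took the median of the housekeeping differences from 0.08 to -0.13. This gave 204 genes at least 2-fold higher, 693 lower and 63 at least 4-fold lower. The glycolysis median turned to -0.0037 and the chemokine receptor median to -0.013. Relative to the median of all genes these medians were unchanged. A filter at the 75th percentile (6.93) left 203 genes 2-fold higher. Over members that pass that filter, medians were -0.85 for calcium handling, -0.70 for imprinted genes, -0.43 for skeletal muscle (reversed), -1.16 for epicardial, -1.69 for epithelial, 1.56 for pan-lineage, 1.39 for resident and 1.73 for recruited macrophage genes (1.25 over members passing the main filter), 2.32 for dendritic cell genes, -3.36 for erythroid and platelet genes and 1.82 for chemokines. This filter keeps fewer, brighter members, and a member passes on its higher value. The dendritic cell value is that of Cd80 alone, and the erythroid and platelet value that of Ppbp alone. Ppbp passed only through the neonatal library, at 8.89 against 5.53 in the adult library. The lymphatic median was 0.089 over members on no other list. With no filter, the brightest or the median probe set, cyclic loess or quantile normalisation of the heart arrays alone, all 4 counts stayed within 1.5 times the values given, as they did without the X and Y chromosomes, an alternative chosen after seeing the data. Of single genes, Kcnma1 (4.60), H2-Q10 (1.59), Plagl1 (-2.05), Slc7a11 (2.09), Tpm3 (0.77) and Cox7b (0.26) moved, all with the brightest probe set. One array a group limits precision throughout.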

Other observations

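The X chromosome held 6 of the 41 genes at least 4-fold lower in the adult library. Of 415 X-linked genes that entered, 22 were at least 2-fold lower (5.30%) and 11 higher (2.65%), and 6 were at least 4-fold lower (1.45%). Over all genes that entered, these shares were 2.92%, 2.52% and 0.311%. Chromosomes 12, 13 and 14 came near the X in the 2-fold lower share, at 4.96%, 4.47% and 4.41%. The largest 4-fold lower share of another chromosome was 0.739%, on chromosome 15. Besides Xist, the X-linked genes at least 4-fold lower were Nrk, Stk26, Gpc3, Capn6 and Tmem255a. Stk26, a kinase of the STE20 family, read 5.11 in the adult library, 8.58 in the neonatal library and 6.58 in iPS cells. Capn6, a calpain of embryonic muscle, read 5.82 and 9.11, and Tmem255a, a membrane protein, 5.32 and 8.60. In the iPS cultures with DMSO, NRG-1 and both, Gpc3 read 9.85, 9.87 and 9.87, above both heart libraries, while Tmem255a read 4.99, 5.28 and 4.80, near the adult value. On the higher side the X chromosome gave Pcdh19, a protocadherin (7.97 and 5.56), and Gpm6b, a membrane proteolipid (7.89 and 5.63). The median difference over all X-linked genes that entered was -0.04, beside -0.03 over all genes that entered.

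Asb5 and Htr2a, among the genes furthest apart, read under the entry limit of 5.20 in all 4 iPS-derived arrays. The same held for others of the genes furthest apart, such as Cd200, Ccl6, Selp and Itga4. Asb5, a gene of muscle and arterial growth, read 10.07 in the adult library and 7.26 in the neonatal library, against 4.22 in iPS cells and 4.19, 3.77 and 4.23 in the cultures with DMSO, NRG-1 and both. Htr2a read 5.04 in the adult library and 8.48 in the neonatal library, and 4.27, 4.35 and 4.27 in those cultures.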
